A study of Rattus norvegicus with 12 samples.

Results

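The renin-angiotensin system genes were read here in primary atrial fibroblasts of newborn rats kept in angiotensin II (AngII), the peptide hormone that this system makes. They were the 8 genes Agtr1a, Agtr1b, Agtr2, Mas1, Lnpep, Agtrap, Agt and Ace, found by their symbols among the 22850 features of the count table, and all 8 were present. The fibroblasts came from the atria of Sprague-Dawley rats aged 1 to 3 days and were enriched by differential adhesion without a sort, so that other attached cells can remain. All 12 cultures received AngII at 1 μmol/L for 48 h in medium with 2% fetal bovine serum. In the first group of 4 libraries AngII was given alone. The AngII+HNG group received HNG, an analogue of the mitochondrial peptide humanin, at 10 μmol/L from 1 h before AngII and then together with it. The AngII+MOTS-c group received MOTS-c, another peptide encoded in mitochondrial DNA, at 5 μmol/L from 1 h before AngII and then together with it. Untreated cells were not part of the data used here, so the response to AngII itself could not be measured, and the comparisons ask only what each peptide changed in its presence. The peptides were given at different doses, so their values are compared as the study's groups and not at a matched dose.

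Angiotensinogen, encoded by Agt, is cut to angiotensin I, and angiotensin-converting enzyme, encoded by Ace, cuts this further to AngII. AngII acts mainly on the AT1 receptor, which is encoded in rodents by the paralogues Agtr1a and Agtr1b and drives contraction, growth and matrix production. The AT2 receptor (Agtr2) and the Mas receptor (Mas1), which binds a shorter angiotensin, are known mostly for opposing actions. Lnpep encodes insulin-regulated aminopeptidase, also described as the AT4 receptor, and Agtrap encodes a protein that binds the AT1 receptor and favours its internalization. In the heart, fibroblasts are a main site of AT1 receptors, and the system is a known driver of atrial fibrosis.

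Each library held 27960586 to 38322354 reads counted on genes. Levels within a gene are given as CPM, the counts of a library relative to its total, after the 12 libraries were scaled by the TMM method of edgeR, and a floor of 3 counts in a library corresponded to 0.0783 to 0.107 CPM, which covers counting error only. The study's methods call the libraries of a group biological replicates, but do not say whether they came from separate preparations, so p-values measure the spread between these libraries. Replicates 2 and 3 of each group share a number in their library names. AngII+MOTS-c replicate 1 carries the number 2 there, whereas replicate 1 of the other groups carries 1. The 8 fibroblast markers, among them Pdgfra, Col1a1 and Dcn, summed to 38815 to 44024 CPM over the 12 libraries. Markers of other cells were present too, with 8 cardiomyocyte genes summing to 5757 to 7703 CPM, 8 smooth muscle and pericyte genes to 950 to 1255 CPM, 8 macrophage genes to 160.7 to 263.0 CPM and 8 endothelial genes to 75.1 to 106.0 CPM. The 6 mesothelial genes summed to 54.8 to 68.0 CPM and the 6 Schwann cell genes to at most 13.3 CPM, and no marker of any list was at 0 in every library.

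Promoter sequences are shown for the AT1 receptor paralogues, whose levels lay far apart, and for Ace, the gene that changed with treatment. They come from RefSeq (rat build GRCr8), and the promoter table used here was matched for 7 of the 8 genes, all but Agt. Each run is the 150 bases before the gene's start, read 5′ to 3′ on the gene's strand, with capitals for matches that lie wholly within the run, on either strand, to the TATA box core (TATAAA), to the CCAAT box (spelled as named) or to the GC box (GGGCGG). The Agtr1a run lies at chr17:34435433-34435582 on the minus strand, the Agtr1b run at chr2:104849263-104849412 on the minus strand and the Ace run at chr10:91409979-91410128 on the plus strand.
Agtr1a: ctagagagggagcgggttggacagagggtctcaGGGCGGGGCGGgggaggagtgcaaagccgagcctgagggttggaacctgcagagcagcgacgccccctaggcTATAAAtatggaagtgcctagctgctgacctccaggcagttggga
Agtr1b: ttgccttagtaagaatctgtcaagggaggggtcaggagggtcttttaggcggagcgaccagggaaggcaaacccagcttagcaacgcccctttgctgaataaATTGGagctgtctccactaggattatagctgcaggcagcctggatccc
Ace: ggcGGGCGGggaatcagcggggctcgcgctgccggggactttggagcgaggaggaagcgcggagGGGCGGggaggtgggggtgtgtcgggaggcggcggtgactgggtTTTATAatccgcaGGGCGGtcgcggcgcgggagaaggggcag
In the window of 250 bases before the start, Agtr1a held 1 match to the TATA box core, beginning 45 bases upstream, and 2 overlapping GC boxes. Agtr1b held neither of these, and its 2 CCAAT boxes, at 163 and 48 bases upstream, were on the opposite strand, the first of them outside the printed run. The Ace window held 4 GC boxes, of which the first 2 overlap and the first begins 1 base before the printed run, and 1 match to the TATA box core on the opposite strand, and 69.2% of its bases were G or C. Among all 33469 RefSeq promoter windows of that length, the TATA box core was found in 12.93%, the CCAAT box in 34.02% and the GC box in 30.47%, and the median GC content was 51.2%. The GC content of the 7 matched genes ran from 38% in Agtr2 to 71.6% in Lnpep. These matches describe the letters of the windows only.

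Agtr1a was the most abundant of the 8 genes when levels were compared per length, as FPKM (fragments scaled to gene length and library total). Its mean over the 12 libraries was 16.2 FPKM, followed by Lnpep at 13.5, Agtrap at 7.17, Ace at 2.01, Agt at 0.308, Agtr2 at 0.184, Mas1 at 0.146 and Agtr1b at 0.0064 FPKM. The ranges of Agtr1a and Lnpep overlapped, with Agtr1a the higher in 10 of 12 libraries. Lnpep, Agtrap, Ace and Agt followed each other without overlap. Agt exceeded Agtr2 in 10 and Agtr2 exceeded Mas1 in 7 of 12 libraries, so the order of these low genes was not clear of their spread. Mas1 was above Agtr1b in every library. Agtr1a lay at the 76.7th percentile of expressed features by FPKM, Ace at the 41.4th and Agtr1b at the 7.15th.

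**Figure D1:**
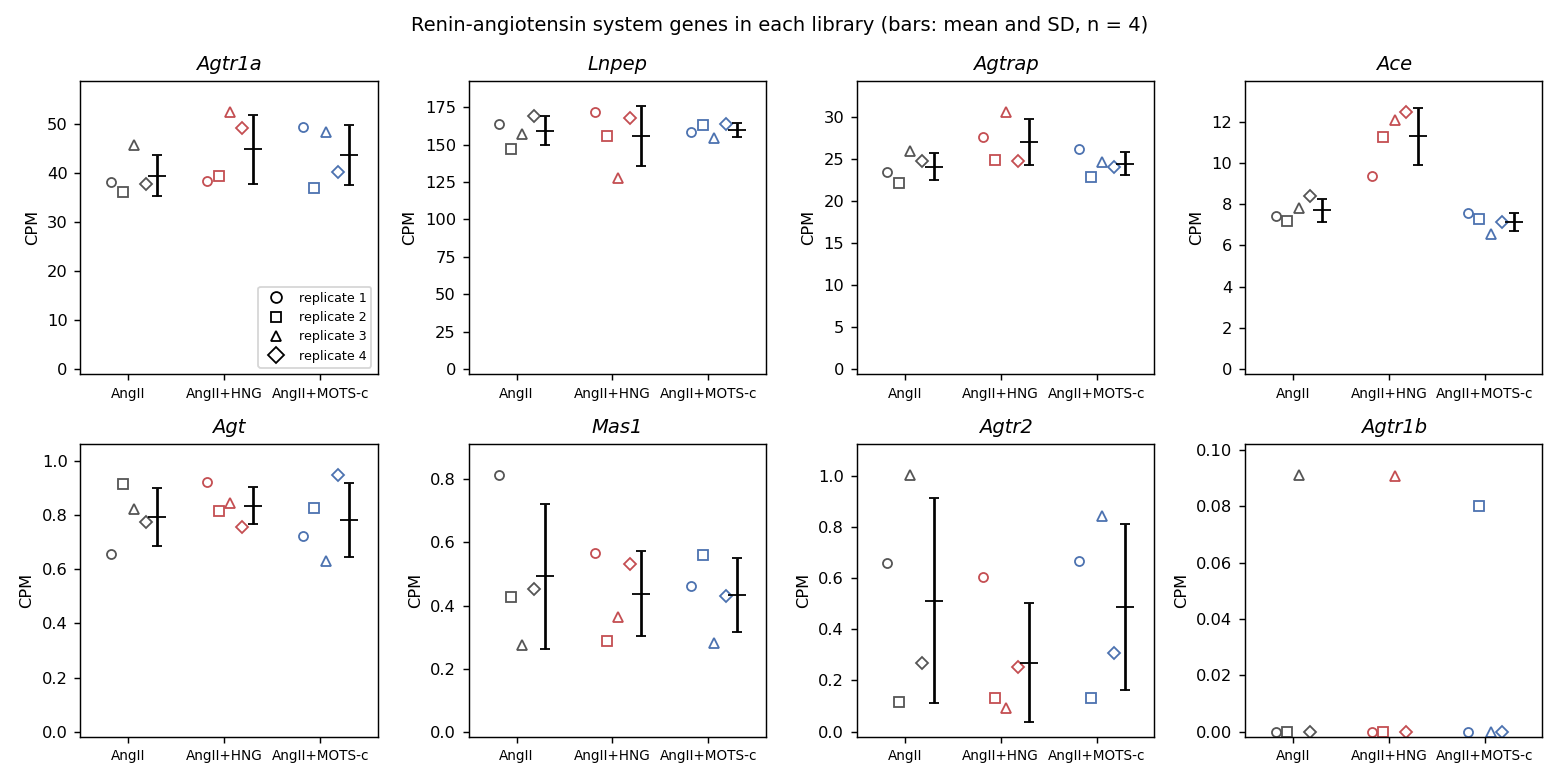
CPM of the 8 genes in each library, 1 panel per gene, with points for the libraries of AngII, AngII+HNG and AngII+MOTS-c and, except for Agtr1b, bars for the mean ± SD of 4 libraries. Ace is the gene whose AngII+HNG points, from 9.37 to 12.5 CPM, lie above every point of the other treatments, and Agtr1b is at 0 in 9 libraries.

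Among the 8 genes, Ace rose with HNG, and none of the 7 tested passed the test with MOTS-c. Of the 6 genes with enough counts to be tested for AngII+HNG against AngII, 1 was significantly higher (edgeR quasi-likelihood test, Benjamini-Hochberg adjusted p below 0.05), where 5.98% of all 14524 tested genes were called. The median difference of these 6 was 0.12 on the log2 scale against 0.0043 over all tested genes. For AngII+MOTS-c against AngII, 0 of 7 tested genes were called by edgeR, DESeq2 or limma and 0 had an unadjusted p below 0.05, where 0.0069% of 14488 genes were called and 5.05% had such an unadjusted p. Their median difference was -0.0068 against -0.00076 over all genes. For AngII+HNG against AngII+MOTS-c, 1 of 7 tested genes was called, again Ace, where 4.41% of 14448 genes were called, 2.64% higher and 1.77% lower. The comparisons share libraries, so a group that stands apart enters more than 1 of them. Agtr1b was below the count filter in each comparison and Agtr2 in that of AngII+HNG with AngII.

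Ace encodes the peptidase that makes AngII and also degrades bradykinin. Its level in the AngII libraries 1 to 4 was 7.42, 7.17, 7.82 and 8.41 CPM. With HNG it was 9.37, 11.3, 12.1 and 12.5 CPM. With MOTS-c it was 7.59, 7.31, 6.55 and 7.14 CPM. All 4 HNG libraries were above all 8 others, and the MOTS-c libraries overlapped those of AngII alone. The counts behind these levels were 187 to 445 reads per library.

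With HNG, Ace averaged 11.3 ± 1.39 CPM (SD, n = 4) against 7.70 ± 0.543 CPM in AngII alone, a difference of 0.56 ± 0.10 (SE) on the log2 scale, or 1.47-fold (95% interval of the log2 difference 0.34 to 0.78, edgeR adjusted p = 0.00633). An exact permutation test of the mean CPM gave p = 0.0286, the smallest that 4 libraries against 4 allow (two-sided). No overlap between the groups was also seen for 13.7% of all tested genes. With MOTS-c the mean was 7.15 ± 0.439 CPM, and the difference from AngII alone, -0.10 on the log2 scale, did not exceed the spread (95% interval -0.29 to 0.077, edgeR adjusted p = 0.939). The difference between the peptide groups was 0.66 ± 0.10 (SE) on the log2 scale, or 1.58-fold higher with HNG (95% interval 0.44 to 0.88, edgeR adjusted p = 0.00311). Of the summed squared spread of Ace over the 12 libraries, 86.2% lay between the treatments, more than for 98.8% of the 13086 genes that averaged 1 CPM or more. A change in bulk RNA cannot be divided into more RNA per cell and more cells of a type that carries it.

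Endothelial cells and macrophages are known to express Ace, and the summed level of endothelial markers was higher with HNG, as Ace was. The 8 endothelial markers summed to 75.1 to 84.3 CPM with AngII, 96.3 to 106.0 CPM with HNG and 79.7 to 84.4 CPM with MOTS-c. Of these, Tek, Tie1, Kdr and Egfl7 were significantly higher with HNG than with AngII alone, and the summed level was 1.25 times as high (exact permutation test, p = 0.0286, adjusted over 3 comparisons 0.0429). The 8 macrophage markers summed to 160.7 to 199.2 CPM with AngII, 192.3 to 263.0 CPM with HNG and 161.0 to 192.3 CPM with MOTS-c. Cd68, Mrc1 and Ptprc were significantly higher with HNG than with AngII alone, but the macrophage sums of these groups overlapped (exact permutation test, p = 0.0571, adjusted 0.0857). Against AngII alone, HNG also had 3 of 8 smooth muscle and pericyte markers significantly lower (Cnn1, Notch3 and Myh11), and 2 of 8 fibroblast (Tcf21 and Thy1), 1 of 8 cardiomyocyte (Tnni3) and 1 of 6 mesothelial markers (Upk1b) significantly higher, where 5.98% of all tested genes were called.

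Set against the endothelial sum, a scale chosen after the values were seen, Ace amounted to 9.54 ± 0.734% with AngII, 11.2 ± 0.986% with HNG and 8.81 ± 0.434% with MOTS-c (SD, n = 4). On this scale the HNG and AngII libraries overlapped (exact permutation test, p = 0.0571, adjusted over 3 comparisons 0.0857). HNG and MOTS-c libraries did not overlap (exact permutation test, p = 0.0286, adjusted 0.0857). Set against the macrophage sum, the means were 4.49%, 5.22% and 4.05% in the same order, with the same exact permutation p-values. The part of these cell types in the Ace result was not tested further.

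**Figure D2:**
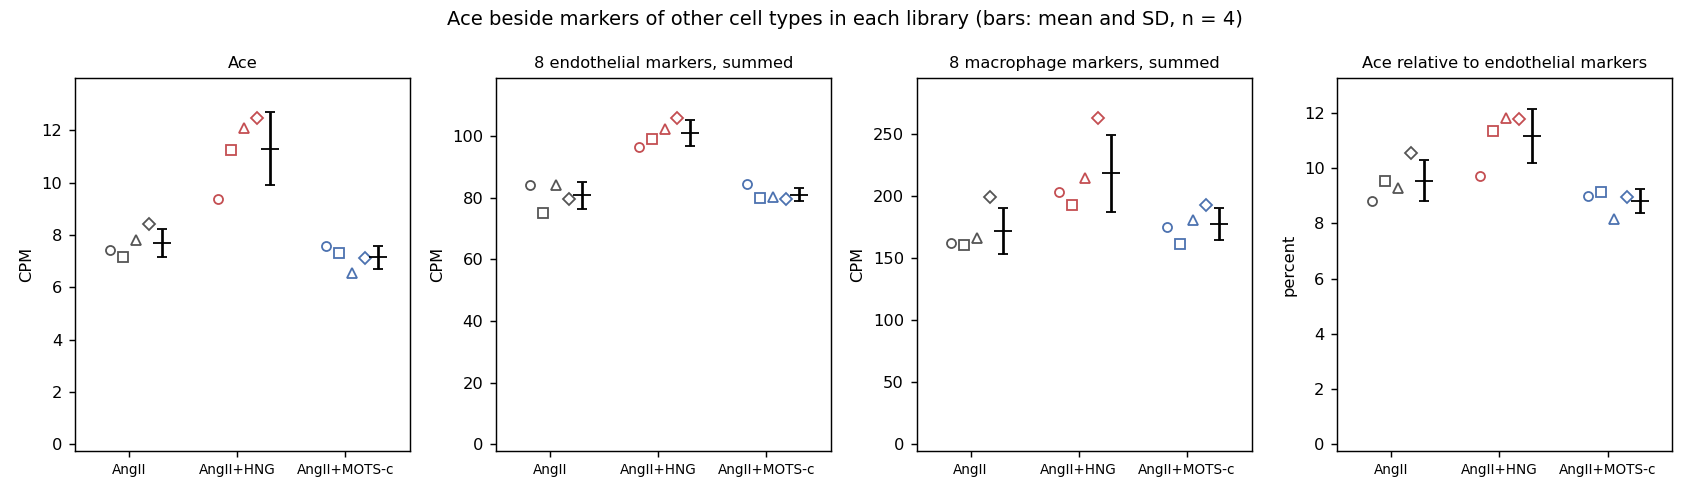
Ace (CPM), the summed CPM of 8 endothelial and of 8 macrophage markers, and Ace as a percentage of the endothelial sum in the 3 treatments, with 1 point per library, a shape per replicate number and bars for the mean ± SD of 4 libraries. The 4 AngII+HNG libraries hold both the highest Ace levels, from 9.37 CPM, and the highest endothelial sums, from 96.3 CPM, whereas macrophage sums overlap with those of AngII and HNG replicate 1 lies among the AngII libraries in the percentage.

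Agtr1a, the main AT1 receptor gene of rodent heart and vessels, was read 1083 to 1757 times per library. Its level in the AngII libraries 1 to 4 was 38.2, 36.2, 45.7 and 37.8 CPM. With HNG it was 38.4, 39.5, 52.5 and 49.3 CPM, and with MOTS-c 49.5, 37.0, 48.5 and 40.3 CPM. The 3 treatments overlapped. Means were 39.5 ± 4.22, 44.9 ± 7.05 and 43.8 ± 6.13 CPM (SD, n = 4). The difference from AngII alone was 0.19 on the log2 scale with HNG (95% interval -0.028 to 0.41, edgeR adjusted p = 0.321) and 0.15 with MOTS-c (95% interval -0.048 to 0.35, edgeR adjusted p = 0.924). With single libraries left out, the former ran from 0.11 (without AngII+HNG replicate 3) to 0.27 (without AngII replicate 3). The latter was 0.086 without AngII+MOTS-c replicate 1 and 0.23 without AngII replicate 3. Blocking on replicate number left the HNG difference at 0.19 and lowered its edgeR adjusted p to 0.0966, which was still no call. For MOTS-c that block gave 0.15 (edgeR adjusted p = 0.658). In the main fit the peptide groups differed by 0.039 (95% interval -0.21 to 0.28, edgeR adjusted p = 0.889). These intervals leave out a fall of Agtr1a beyond 0.048 on the log2 scale with either peptide, but a rise of up to 0.41 with HNG and 0.35 with MOTS-c lay within them.

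Agtr1b, the second AT1 receptor gene, was nearly silent. It had 3 counts in each of AngII replicate 3, AngII+HNG replicate 3 and AngII+MOTS-c replicate 2, and 0 in the other 9 libraries. Over all libraries 9 of the 17532 reads on the pair belonged to Agtr1b, a share of 0.0513% (exact 95% interval 0.0235 to 0.0974%, which covers counting error only and takes the reads as independent, whereas all 9 came from 3 libraries). In the libraries without a read, a count of 0 allows a share of up to 0.171 to 0.277%. The paralogues are close in coding sequence, and how reads that match both were counted is not given in the sources used here, so the split is uncertain by that number of reads.

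Agtr2, whose receptor is abundant in fetal tissue and falls after birth, was read at most 33 times. The AngII libraries 1 to 4 held 25, 4, 33 and 10 counts, the HNG libraries 17, 5, 3 and 9 and the MOTS-c libraries 23, 5, 24 and 10. The libraries numbered 1, 2 and 4 held 17 to 25, 4 to 5 and 9 to 10 counts whatever the treatment, and HNG replicate 3 stood apart from the other libraries numbered 3. The groups overlapped. Means were 0.511 ± 0.401 CPM with AngII, 0.269 ± 0.233 with HNG and 0.487 ± 0.324 with MOTS-c (SD, n = 4). HNG and AngII were compared by an exact permutation test of the mean CPM (two-sided p = 0.286). HNG and MOTS-c differed by -0.88 on the log2 scale (95% interval -2.21 to 0.46, edgeR adjusted p = 0.467) and MOTS-c and AngII by -0.090 (95% interval -1.36 to 1.18, edgeR adjusted p = 0.992). The size of the former was not stable. It was -1.56 without AngII+HNG replicate 1 and -0.51 without AngII+MOTS-c replicate 3. With the library name's number as a block, to which replicate 1 of both groups adds nothing, it was -1.34. By limma on log2 of FPKM plus 1 and plus 0.1 it was -0.070 and -0.31. At these counts the interval for MOTS-c held changes of 2-fold in either direction.

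The count and FPKM tables did not scale alike for Agtr2. A count divided by its FPKM and the library total gives the gene length that the FPKM implies, and for Agtr2 this was 3167 to 3366 bases in 5 libraries with 17 to 33 counts and 1144 to 1491 bases in 7 libraries with 3 to 10 counts. The longest was 2.94 times the shortest. A ratio as large was found in 48 of 14504 genes with at least 3 counts in every library (0.331%), where the median ratio was 1.02. Among the 1306 of them with a mean under 30 counts it was found in 32 (2.45%). For the other genes with counts in all libraries the ratio ran from 1.01 in Lnpep to 1.09 in Agtr1a. Agtr2 therefore varied less in FPKM, from 0.0615 to 0.316, than in counts, from 3 to 33. What in the counting gave 2 lengths was not tested.

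**Figure D3:**
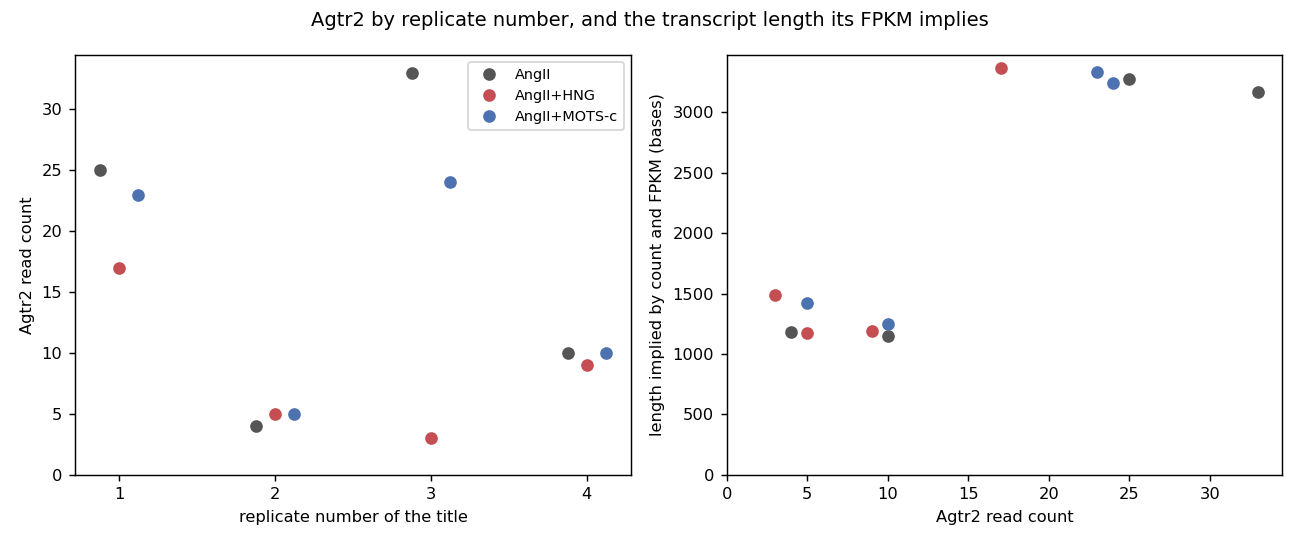
Left, Agtr2 read counts of the 12 libraries by replicate number, and right, the gene length in bases that count and FPKM imply against the count, with 1 point per library and a colour per treatment. Counts are alike within the numbers 1, 2 and 4, the 5 libraries with 17 to 33 counts imply 3167 to 3366 bases and the 7 with 3 to 10 counts imply 1144 to 1491 bases, and each treatment has libraries in both sets.

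The balance of AT1 to AT2 receptor mRNA, taken as the FPKM ratio of Agtr1a to Agtr2, ran from 52.0-fold in AngII replicate 3 to 323.9-fold in AngII+HNG replicate 3. On the log2 scale it averaged 6.25 ± 0.65 with AngII, 7.05 ± 0.92 with HNG and 6.49 ± 0.54 with MOTS-c (SD, n = 4). The treatments overlapped. HNG and AngII differed with an exact permutation p of 0.2 (adjusted over 3 comparisons 0.514), HNG and MOTS-c with an exact p of 0.343 (adjusted 0.514) and MOTS-c and AngII with an exact p of 0.543 (adjusted 0.543). Without AngII+HNG replicate 3 the log2 ratio with HNG exceeded that with AngII by 0.37 in place of 0.80, and that with MOTS-c by 0.14 in place of 0.56. With CPM in place of FPKM these differences were 1.05 and 0.95, and neither passed the exact permutation test. The 2 lengths that FPKM implies for Agtr2 enter this ratio.

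Mas1, the receptor gene of the counter-regulatory arm, was read 8 to 31 times per library. It had 31, 15, 9 and 17 counts in the AngII libraries 1 to 4, 16, 11, 12 and 19 with HNG and 16, 21, 8 and 14 with MOTS-c. The treatments overlapped, with the highest count in AngII replicate 1. The difference from AngII alone was -0.20 on the log2 scale with HNG (95% interval -0.99 to 0.60, edgeR adjusted p = 0.832) and -0.18 with MOTS-c (95% interval -0.94 to 0.59). The peptide groups differed by -0.020 (95% interval -0.74 to 0.70).

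Lnpep, which encodes a membrane aminopeptidase that travels with the glucose transporter of insulin-responsive vesicles, took the most reads of the 8 genes. Its level ran from 147.4 to 169.4 CPM with AngII, from 127.7 to 172.0 CPM with HNG and from 154.3 to 163.7 CPM with MOTS-c. The widest group was HNG, whose replicate 3 was the lowest library of all. Differences from AngII alone were -0.029 on the log2 scale with HNG (95% interval -0.20 to 0.14, edgeR adjusted p = 0.893) and 0.0059 with MOTS-c (95% interval -0.082 to 0.094, edgeR adjusted p = 0.993). The peptide groups differed by -0.037 (95% interval -0.20 to 0.12, edgeR adjusted p = 0.832). For MOTS-c this was the narrowest interval among the tested genes of the 8, and a change beyond 0.094 lay outside it.

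Agtrap, the AT1 receptor-binding protein, was the member other than Ace with an unadjusted edgeR p below 0.05. The AngII libraries 1 to 4 were at 23.4, 22.2, 26.0 and 24.8 CPM, the HNG libraries at 27.7, 24.9, 30.6 and 24.8 CPM and the MOTS-c libraries at 26.2, 22.9, 24.6 and 24.0 CPM. HNG and AngII overlapped. The difference was 0.17 on the log2 scale with HNG (95% interval 0.0039 to 0.33) and did not pass the adjustment (edgeR adjusted p = 0.236), where 20.3% of all tested genes had an unadjusted p below 0.05. With MOTS-c it was 0.021 (95% interval -0.12 to 0.16, edgeR adjusted p = 0.980), and the peptide groups differed by 0.14 (95% interval -0.017 to 0.31, edgeR adjusted p = 0.310). Without AngII+HNG replicate 3, HNG differed by 0.10 from AngII and by 0.077 from MOTS-c.

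Agt, the precursor of all angiotensins, was low in these cells. The AngII libraries 1 to 4 held 25, 32, 27 and 29 counts, the HNG libraries 26, 31, 28 and 27 and the MOTS-c libraries 25, 31, 18 and 31. The lowest library was MOTS-c replicate 3, which was also the shallowest of its group, and the treatments overlapped. Differences from AngII alone were 0.080 on the log2 scale with HNG (95% interval -0.38 to 0.54, edgeR adjusted p = 0.891) and -0.0068 with MOTS-c (95% interval -0.49 to 0.48). The peptide groups differed by 0.084 (95% interval -0.39 to 0.56).

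**Figure D4:**
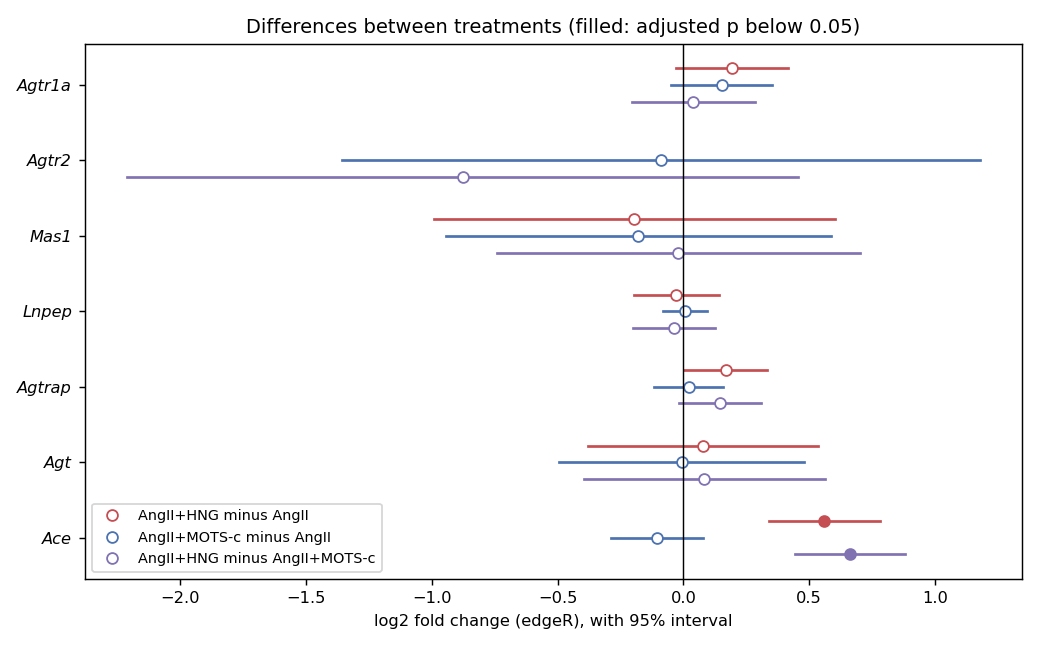
Log2 differences of the tested genes in the 3 comparisons, with 95% intervals from edgeR and filled markers for an adjusted p below 0.05. Ace with HNG, at 0.56 against AngII and 0.66 against AngII+MOTS-c, carries the filled markers, and the widest intervals are those of the low genes Agtr2, Mas1 and Agt.

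For Agtr1a, Agtr2, Mas1, Lnpep and Agtrap, the replicate number of a library went with more of the variation than the treatment did. The 4 numbers divide the libraries more finely than the 3 treatments, which by itself raises their share. Of the summed squared spread of log2 CPM over the 12 libraries, 52.3% lay between the 4 replicate numbers for Agtr1a, 55.9% for Agtr2, 60.9% for Mas1, 49.1% for Lnpep and 42.3% for Agtrap. The median over 13086 genes was 26.3%. Between the 3 treatments these shares were 17.4%, 12.6%, 1.62%, 3.49% and 35.8% in the same order, where the median gene was at 24.1%. Ace was the reverse, with 3.92% between the numbers and 86.2% between the treatments. Agt was below the median gene in both, with 16.0% between the numbers and 6.53% between the treatments. As an example of a spread between numbers, Agtr1a was at 45.7 to 52.5 CPM in the libraries numbered 3 and at 36.2 to 39.5 CPM in those numbered 2. The labels do not say what a number marks.

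The genes most like each member over the 12 libraries were found by Pearson's r of log2 CPM, given as a description only, since all points share their library and 12196 genes were searched. Ace was followed most closely by Tmem178a (r = 0.967), Pltp (r = 0.964), which encodes phospholipid transfer protein, and Dpp7 (r = 0.961), a lysosomal dipeptidase. With the treatment means removed, these fell to 0.782, 0.752 and 0.730. Agtr1a was most like the proprotein convertase gene Pcsk5 (r = 0.882), the macrophage complement gene C1qa (r = 0.880) and Sowahc (r = 0.862), and with treatment means removed r was 0.880, 0.948 and 0.904. Lnpep was most like Hook3 (r = 0.963), Dsel (r = 0.963) and Dyrk1a (r = 0.944), and Agtrap most like Eif2s3 (r = 0.929), Ppm1m (r = 0.903) and Tspan9 (r = 0.885).

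Around these genes, a list of 28 other components of the system held 6 that rose with HNG and none that fell, of 20 tested against AngII alone (5.98% of all genes were called, 3.4% higher and 2.58% lower). The median log2 difference of the 20 was 0.22 against 0.0043 over all genes. Hsd11b1, which regenerates active glucocorticoid from its inactive form, was 35.6 ± 3.31 CPM with HNG and 23.7 ± 1.32 CPM with AngII alone (SD, n = 4), a log2 difference of 0.59 (edgeR adjusted p = 5.09e-04). The lysosomal proteases Ctsd and Ctsa, which can also process angiotensin peptides, were higher by 0.37 and 0.24 on the log2 scale. Arap1, whose product has been described to bind the AT1 receptor, and Atp6ap2, the prorenin receptor, were higher by 0.24 and 0.25. Anpep, an aminopeptidase that degrades angiotensin III, was higher by 0.29 (edgeR adjusted p = 0.0423). It was called in 9 of 18 alternative analyses, and its adjusted p was 0.139 without AngII replicate 1, 0.138 without AngII replicate 2, 0.125 without AngII replicate 3, 0.063 without AngII+HNG replicate 3 and 0.112 without AngII+HNG replicate 4. The call of Atp6ap2 was likewise lost without AngII replicate 1 (adjusted p = 0.0524) and without AngII replicate 2 (adjusted p = 0.0509).

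None of the 19 tested genes of this list was called for MOTS-c against AngII by edgeR, and 1 of them, Nln, had an unadjusted p below 0.05, where 0.0069% of all tested genes were called and 5.05% had such a p. The median log2 difference was -0.0019. For HNG against MOTS-c, 4 of 19 were called and all were higher with HNG (Hsd11b1 by 0.67, Ctsd by 0.37, Ctsa by 0.26 and Arap1 by 0.26 on the log2 scale), where 4.41% of all genes were called. The other peptidases tested (Enpep, Mme, Nln, Dpp3, Prep, Thop1, Rnpep and Prcp) passed in no comparison, and Enpep, which converts AngII to angiotensin III, came nearest with HNG (log2 difference 0.26, edgeR adjusted p = 0.0557). The receptor-binding genes Gabarap and Mtus1 passed in no comparison either.

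Several listed genes were at or near the floor. Chymase (Cma1) had 0 to 2 counts per library and the receptor gene Mrgprd 0 to 4. Ctsg, the aldosterone synthase gene Cyp11b2 and the kininogen gene Kng1 had 0 counts in every library, which allows up to 0.0783 to 0.107 CPM.

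Genes of AT1 receptor signalling were mostly not called. Of 32 listed and tested, 2 were higher and 1 lower in AngII+HNG than in AngII, where 3.4% of all tested genes were higher and 2.58% lower. Their median log2 difference was 0.019, and 12 of the 32 had an unadjusted edgeR p below 0.05, against 20.3% of all tested genes. Itpr3, an inositol trisphosphate receptor, was higher by 0.34 (edgeR adjusted p = 0.00473). The kinase gene Mapk3 was higher by 0.13 (edgeR adjusted p = 0.0457) and Rock2, a kinase that acts on the cytoskeleton, was lower at -0.21 (edgeR adjusted p = 0.0443). Mapk3 was called in 7 of 18 alternative analyses and lost its call without any library but AngII+HNG replicate 3 (adjusted p 0.0538 to 0.152). Rock2 was called in 9 and lost its call without AngII replicate 1, 3 or 4 or AngII+HNG replicate 2, 3 or 4 (adjusted p 0.0528 to 0.144). With MOTS-c 0 of 32 were called by edgeR (0.0069% of all tested genes), and 1 had an unadjusted p below 0.05 (5.05% of all tested genes). For HNG against MOTS-c, where 4.41% of all tested genes were called, Itpr3 was higher by 0.34, Ptk2b, a calcium-dependent tyrosine kinase, was higher by 0.35 and Rock2 was lower at -0.22. In this comparison 8 of 32 had an unadjusted edgeR p below 0.05 (19.3% of all tested genes). The call of Ptk2b was lost without AngII+HNG replicate 3 or 4 or AngII+MOTS-c replicate 1, 2 or 3 (adjusted p 0.0534 to 0.0987), and that of Rock2 without AngII+HNG replicate 2 or 4 or AngII+MOTS-c replicate 1, 2 or 3 (adjusted p 0.0522 to 0.0808).

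Of 22 genes listed as known to be induced by AngII, 6 were lower and 1 higher in AngII+HNG than in AngII, where 2.58% of all tested genes were lower and 3.4% higher. Their median log2 difference was -0.10 against 0.0043 over all genes. Has2, the hyaluronan synthase, fell from 7.02 ± 0.848 to 4.22 ± 0.285 CPM (SD, n = 4), a log2 difference of -0.73 (edgeR adjusted p = 0.00227). The monocyte chemokine Ccl2 fell from 52.4 ± 8.93 to 31.6 ± 9.40 CPM (log2 difference -0.72, edgeR adjusted p = 0.0387). Spp1, which encodes osteopontin and is abundant in macrophages, rose from 240.3 ± 44.0 to 398.7 ± 61.2 CPM (log2 difference 0.74, edgeR adjusted p = 0.0035). Hbegf (-0.39), Edn1 (-0.38) and the matrix regulator Ccn2 (-0.31) were also lower. Without AngII replicate 1 or without AngII replicate 2, 3 genes of the list were lower. The call of Ccl2 was lost without AngII replicate 1 (adjusted p = 0.0884), 2 (0.116) or 4 (0.0904) or without AngII+HNG replicate 1 (0.0588) or 2 (0.0838), and that of Edn1 without AngII replicate 1, 2 or 3 or AngII+HNG replicate 1, 2 or 4 (0.0664 to 0.141).

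With MOTS-c 0 of these 22 genes were called by edgeR, against 0.0069% of all tested genes, and 2 had an unadjusted p below 0.05, against 5.05%. For HNG against MOTS-c, 4 were lower and 1 higher with HNG, where 1.77% of all tested genes were lower and 2.64% higher. These counts were 8 lower and 2 higher with the replicate number as a block, and 1 lower and 1 higher without AngII+MOTS-c replicate 1. The log2 differences of those 5 were -0.59 for Has2, -0.34 for Nox4, the NADPH oxidase of fibroblasts, -0.28 for Ccn2, -0.27 for Hbegf and 0.78 for Spp1. The call of Has2 was lost without AngII+MOTS-c replicate 1 (adjusted p = 0.0722), AngII+MOTS-c replicate 2 (0.0693) or AngII+HNG replicate 2 (0.0616), or with the library name's number as a block (0.0746), and that of Hbegf without AngII+MOTS-c replicate 1 (0.0528) or 2 (0.0503). That of Nox4 was lost without AngII+HNG replicate 2 or 3 or AngII+MOTS-c replicate 1, 3 or 4 (adjusted p 0.0618 to 0.107), or with that block (0.0857). In that block replicate 1 of both groups adds nothing to the difference. The part in these lists of the cell types whose markers are given above for Ace was not tested.

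**Figure D5:**
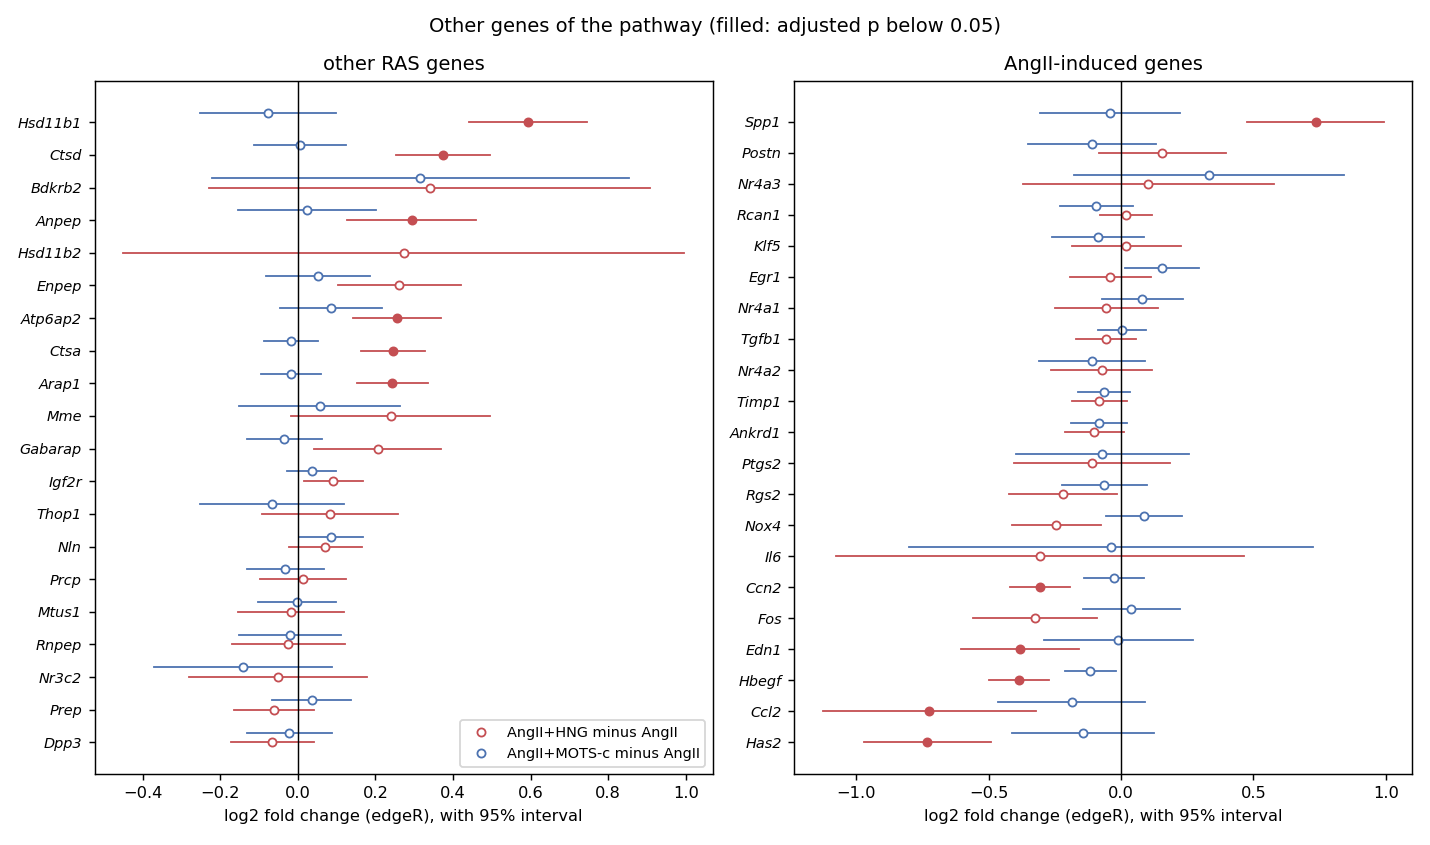
Log2 differences from AngII alone, with 95% intervals from edgeR, for tested genes among the other components of the renin-angiotensin system (RAS, left) and among the genes known to be induced by AngII (right, without a gene not reported by name), with HNG in red, MOTS-c in blue and filled points for an edgeR adjusted p below 0.05. Filled points occur with HNG, from Has2 at -0.73 to Spp1 at 0.74, and none occurs with MOTS-c.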

How the data were processed

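Primary rat atrial fibroblasts were sequenced in 12 libraries, 4 for each of the treatments AngII, AngII+HNG and AngII+MOTS-c, grouped by the sample titles. Doses, times and rat age were taken from the study's methods. The authors deposited unnormalized whole-number read counts per gene, and FPKM values of the same genes, which divide each count by gene length and library total. The submitters' processing notes name HISAT2, Picard 1.41 and SAMtools 0.1.18. The genome build, the counting tool and its strand setting are not given in the sources used here, so overlapping and antisense genes cannot be told apart and no gene coordinates are given for the counts. Of the 22850 features, 320 are transcripts assembled from the reads and 4465 had 0 counts in all libraries.

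Counts were tested with edgeR 4.0.16 in R 4.3.3. Only the 8 libraries of a comparison entered its fit, after filterByExpr and TMM scaling, with glmQLFit and glmQLFTest and Benjamini-Hochberg adjustment over all genes tested (threshold 0.05, no limit on the fold). Log2 CPM used a prior count of 2. Library totals of 27960586 to 38322354 counts set the precision, and genes under 1 CPM rest on few reads. Members below the filter, receptor ratios and marker sums were compared by two-sided exact permutation tests over the 70 assignments of 8 libraries. Levels between genes were compared in FPKM. Promoters were read from RefSeq (GRCr8).

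The members, the gene lists and the tests were chosen with earlier results of these data known. Some genes of the lists enter the counts but are not reported here by name. All 8 members are named, other components of the system where called or sharing a role with a member, the 4 called genes with the largest differences of the other lists in each comparison, and the 3 genes most like each member with a mean of at least 1 CPM. Hbegf, Edn1 and Ccn2 of the HNG comparison and the marker genes called were named after their values were seen. Alternatives were DESeq2 1.42.0, RLE size factors, no filter, at least 10 counts in every library, a joint fit of the 12 libraries, a block for the replicate number, a block for the library name's number, replicates 2 and 3 summed, limma 3.58.1 on log2 of FPKM plus 1 or plus 0.1, and the omission of each library.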

Additional observations from a re-analysis of the deposited data

Results flagged for a closer look

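Agtr1b stood out in 1 library of each treatment, because that library had reads and the other 3 had none, so its gap to the nearest library was the whole range of the group (a ratio of 1). These were AngII replicate 3 at 0.0913 CPM, AngII+HNG replicate 3 at 0.0906 CPM and AngII+MOTS-c replicate 2 at 0.08 CPM, each with 3 counts. They were 3 of 24 groups examined. With 3 libraries at 0 the ratio is 1 by construction, so the rate of about 1 in 20 that chance gives for such gaps does not apply.

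Between the peptide groups, the following genes differed by edgeR's test of the difference itself, given as log2 AngII+HNG minus AngII+MOTS-c. Ace was at 0.66. Of the other components of the system, Hsd11b1 was at 0.67, Ctsd at 0.37, Ctsa at 0.26 and Arap1 at 0.26. Of the signalling genes, Itpr3 was at 0.34, Ptk2b at 0.35 and Rock2 at -0.22. Of the genes known to be induced by AngII, Spp1 was at 0.78, Has2 at -0.59, Nox4 at -0.34, Ccn2 at -0.28 and Hbegf at -0.27.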

How the results depend on the processing

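Ace with HNG kept its direction and its call in all 18 alternatives. The log2 difference ran from 0.39 to 0.64 against AngII (edgeR, DESeq2 or limma adjusted p 5.75e-05 to 0.0304) and from 0.45 to 0.77 against AngII+MOTS-c (adjusted p 1.25e-06 to 0.0139), and the number of members called stayed at 1, 0 and 1 in the 3 comparisons. The fit with the replicate number as a block (replicate block) gave Ace differences of 0.55 and 0.66 and changed no call of a member. Among the listed genes, the replicate block ended the call of Mapk3 for HNG against AngII (adjusted p = 0.0532), and the library name block ended those of Has2 (0.0746), Nox4 (0.0857) and Ptk2b (0.0987) for HNG against MOTS-c. Summing replicates 2 and 3 ended those of Edn1 (0.111), Anpep (0.110), Mapk3 (0.104) and Rock2 (0.0626) for HNG against AngII and of Nox4 (0.0985), Rock2 (0.0799) and Ptk2b (0.0520) for HNG against MOTS-c. For HNG against AngII, one fit of all 12 libraries ended those of Edn1 (0.106) and Anpep (0.0616), DESeq2 that of Ccl2 (0.0673), and RLE size factors (0.0504) and no filter (0.0662) that of Mapk3. Limma on FPKM plus 0.1 ended those of Ccl2 (0.0851), Edn1 (0.106), Rock2 (0.101) and Anpep (0.0585) for HNG against AngII and of Ccn2 (0.0608), Has2 (0.0608), Nox4 (0.409) and Rock2 (0.0608) for HNG against MOTS-c, and all of these also on FPKM plus 1. Over all 18 alternatives, the other components of the system called were 4 to 7 higher for HNG against AngII and 4 to 6 higher for HNG against MOTS-c (6 with the replicate block). Genes known to be induced by AngII were 3 to 7 lower and 1 to 8 lower in these comparisons, and signalling genes 1 to 3 higher and 0 to 2 lower against AngII and 1 to 2 higher and 0 to 2 lower against MOTS-c.

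The number of all genes called moved more, and the cause was not tested except where libraries were left out or summed. For HNG against AngII it was 869, 577 with replicates 2 and 3 summed, and 431 to 932 with each library left out (431, 485 and 512 without AngII replicates 1, 2 and 3). For MOTS-c against AngII it was 1, then 4 with DESeq2, 2 with the replicate block, 0 with all 12 libraries in one fit, 0 with the summed libraries and 0 to 3 with each library left out (3 without AngII+MOTS-c replicate 1, 0 without any other). For HNG against MOTS-c it was 637, then 1034 with DESeq2, 975 with all 12 libraries, 1054 with the replicate block and 322 to 625 with each library left out (416 without AngII+HNG replicate 2 and 324, 322 and 389 without AngII+MOTS-c replicates 1, 2 and 3).

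The sign turned only for members without a call. For MOTS-c against AngII, the library name block gave Mas1 0.16 and Agtrap -0.028, and the summed libraries gave Lnpep -0.0090 and Agt 0.045. For HNG against MOTS-c, Mas1 was 0.028 with the summed libraries, 0.0014 with limma on FPKM plus 1 and 0.0056 on FPKM plus 0.1, and Lnpep was 0.0012 with the summed libraries. With each library left out, the log2 differences for HNG against AngII ran from -0.39 to 0.16 for Mas1, -0.078 to 0.054 for Lnpep and -0.0034 to 0.15 for Agt. For MOTS-c against AngII they ran from -0.46 to 0.44 for Agtr2, -0.37 to 0.18 for Mas1, -0.030 to 0.035 for Lnpep, -0.017 to 0.058 for Agtrap and -0.11 to 0.076 for Agt. For HNG against MOTS-c they ran from -0.045 to 0.11 for Agtr1a, -0.17 to 0.14 for Mas1, -0.084 to 0.045 for Lnpep and -0.0053 to 0.19 for Agt. The difference in the share of Agtr1b reads ran from -0.0498 to 0.043 percentage points for HNG against AngII, -0.0498 to 0.054 for MOTS-c against AngII and -0.054 to 0.043 for HNG against MOTS-c, and that in the log2 ratio of Agtr1a to Agtr2 for MOTS-c against AngII from -0.012 to 0.54.

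Libraries with the same number did not deviate together in every pair. Over 13086 genes the correlation of their deviations was -0.14 to 0.17 for HNG and AngII, -0.017 to 0.17 for MOTS-c and AngII and -0.029 to 0.33 for HNG and MOTS-c, and 2, 4 and 6 of 8 libraries correlated best with their own number. The main fits held the treatment only and did not use the numbers as pairs. Fits with the replicate number as a block are given above as an alternative. Agtr1b was below the count filter in each comparison and no fitted value is given for it, and Agtr2 and Mas1 have none in the fits whose filters removed them.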
